A study of Homo sapiens with 6 samples.

Results

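Cytochrome P450 genes encode haem enzymes that insert oxygen into drugs, fatty acids, steroids and vitamins. The members described here are the 56 rows, of 51537 genes in the deposited table, whose name is CYP followed by a family number, a subfamily letter and a gene number, without CYP51A1 of cholesterol synthesis. By the annotation 54 are protein-coding genes and 2, CYP51P2 and CYP51P3, are pseudogenes. The libraries are poly(A) RNA of H3122, a human lung adenocarcinoma line known for its EML4-ALK fusion, with 3 libraries of control cells and 3 of crizotinib-resistant H3122 cells (H3122CR). The resistant cells were derived from the same line by raising the dose of crizotinib, an ALK and MET kinase inhibitor, from 0.1 to 10 µM with drug kept in the medium. The labels do not say whether they are 1 clone, or whether drug was present at harvest. The question set by the study is how transcripts differ once cells have become resistant. The labels do not state that the 3 libraries of a group are separate cultures. Every p-value therefore rests on a spread between libraries that could be purely technical.

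P450 enzymes do not work alone. Microsomal members receive electrons from the reductase POR, at times through cytochrome b5, and mitochondrial members through ferredoxin and its reductase. Families CYP1 to CYP3 are known for the oxidation of drugs and toxins and are highest in liver, where CYP3A4 is the main enzyme that clears crizotinib. CYP4 enzymes oxidise the end of fatty acid chains, including those of leukotrienes and other eicosanoids, and other families make or break down steroids, bile acids, retinoids and vitamin D.

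Values are TPM, a length-corrected transcript abundance in which the reads of a gene are divided by its length and each library is scaled to 1000000. Estimated depth was 29856914 to 36695742 reads per library, rebuilt from the TPM values and annotated exon lengths. A gene was tested when it reached 1 TPM in at least 3 libraries, and called when its adjusted p in limma was below 0.05. Log2 changes are resistant minus control on log2(TPM + 1), which understates the change of low genes, and are given with their standard error. Epithelial markers summed to 15013 to 15640 TPM in control and 15895 to 16992 TPM in resistant libraries. Alveolar markers were nearly absent (4 of 5 under 1 TPM in all libraries), all 6 hepatocyte markers were under 1 TPM in every library with TTR at 0, and all 4 fibroblast markers were under 1 TPM with DCN and LUM at 0. Endothelial markers summed to 8.11 to 8.94 TPM in control and 5.85 to 7.41 TPM in resistant libraries, with 2 of 4 under 1 TPM throughout. The others went opposite ways: on average CDH5 fell from 7.24 to 3.45 TPM, and PECAM1 was at 0.912 in control and 2.80 TPM in resistant cells. PECAM1 met the filter through its resistant libraries.

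What makes these genes a family is the loop that holds the haem iron through a cysteine. A PROSITE-type pattern for that loop was found in the coding sequence of 50 of the 54 protein-coding members, and the 30 coding bases are printed below for the CYP4F genes on which the results turn and for CYP1B1 and CYP27C1 as distant relatives. They are taken from GENCODE 29 transcripts on GRCh38, 5′ to 3′ on the gene's strand, and capitals mark the codon of the cysteine.
CYP4F11: ttctcggcagggcccagaaacTGCatcggg
CYP4F3: ttctcagcagggcccaggaacTGCatcggg
CYP4F12: ttctccgcagggcccaggaacTGCatcggg
CYP4F2: ttctcggcagggcccaggaacTGCatcggg
CYP1B1: ttttcagtgggcaaaaggcggTGCattggc
CYP27C1: tttggtcatggggttcgcagcTGCataggg
The window of CYP4F11 lies between chr19:15913897-15914321 and is split over 2 exons, as are those of CYP4F3, CYP4F12 and CYP4F2. Of its 30 bases, 28 are the same in CYP4F3, 28 in CYP4F12 and 29 in CYP4F2, against 16 in CYP1B1 and 16 in CYP27C1. Over whole transcripts the CYP4F genes differ more: 0.762% of the 50-base windows of CYP4F11 occur in transcripts of another gene, 1.97% of those of CYP4F12 and 8.64% of those of CYP4F3, mostly in CYP4F2. How the authors' counting treated shared reads is not given, so the values of CYP4F3 and CYP4F2 carry that uncertainty.

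Most P450 genes were silent or nearly so in these cells. Of the 56 members, 35 stayed under 1 TPM in all 6 libraries, 17 under 0.1 TPM, and 3 (CYP2C19, CYP7B1 and CYP11B2) were listed at 0 throughout. Only 18 passed the filter and were tested, and 5 reached a mean of 10 TPM in a group: CYP4F11, CYP1B1, CYP4F3, CYP2S1 and CYP27C1. Among the 18 tested members 5 rose and 3 fell, and the other 10 were not called. Of the 3 that fell, CYP4X1 passed the filter only through its control libraries. Among all 16077 genes tested, 48.6% were called, 24.0% higher and 24.7% lower, so the share of P450 genes that changed was close to the background. The control and resistant libraries of 11 of the 18 members did not overlap, as was true of 57.9% of all tested genes. With the filter raised to 5 TPM, 9 members were tested, 2 rose and 2 fell. There 58.5% of all genes were called, 26.9% higher and 31.6% lower. Of those 2 decreases, CYP20A1 reached 5 TPM in control libraries only, so its call at that filter is no support for a decrease. On the original filter the members' median log2 change was -0.02, and that of all tested genes was -0.00.

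**Figure D1:**
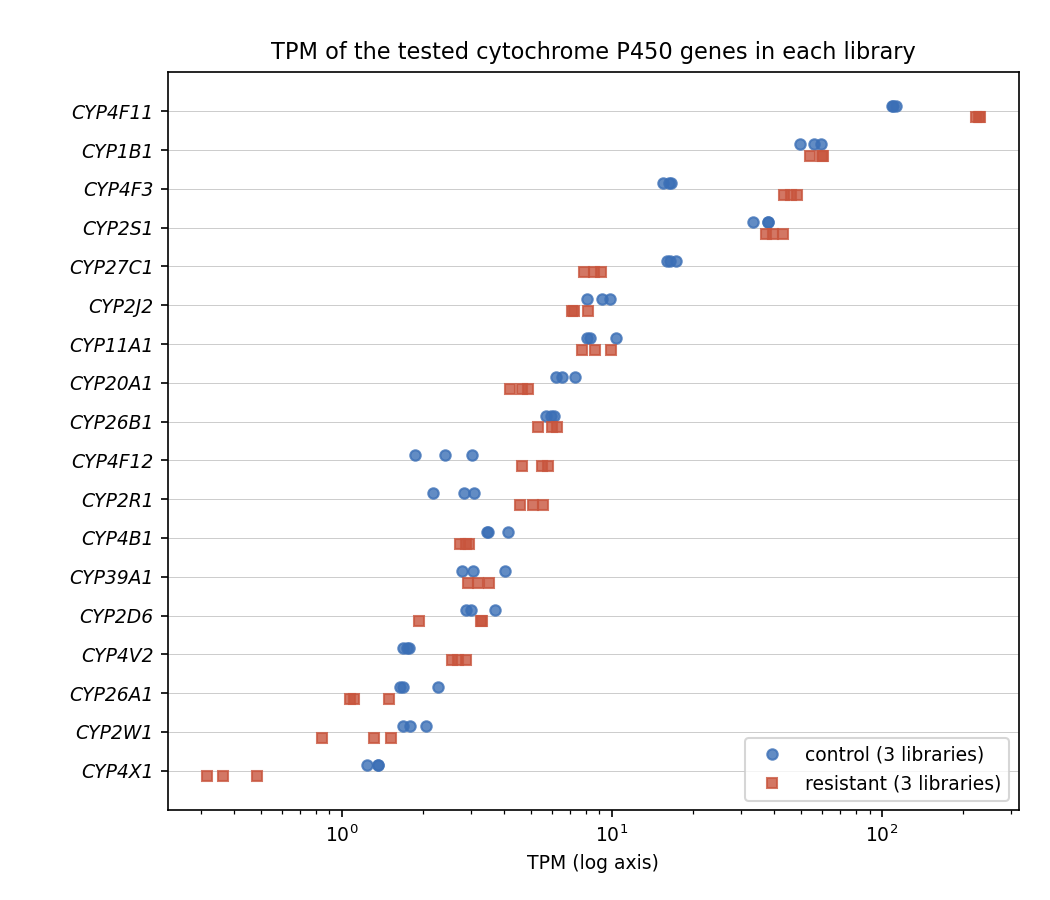
TPM of the 18 tested P450 genes on a log axis, ordered by level, with circles for the 3 control and squares for the 3 resistant libraries. CYP4F11, CYP4F3, CYP4F12, CYP2R1 and CYP4V2 have all resistant libraries to the right of all control libraries and were called higher, while CYP27C1, CYP20A1 and CYP4X1 have them to the left and were called lower.

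Enzymes of fatty acid and eicosanoid oxidation held 4 of the 5 increases. Of 12 members in this class, 6 were tested, 4 rose and none fell by the test, beside 24.0% higher and 24.7% lower among all tested genes. These counts depend on classes assigned for this report. CYP4X1, a CYP4 gene called lower but tested only through its control libraries, was placed with the members of little known function. Of the increases, CYP4F11, CYP4F3 and CYP4F12 lie in the same cluster on chromosome 19. CYP4F11 (ENSG00000171903, chr19:15912367-15934867, minus strand), a fatty acid and vitamin K hydroxylase, was the most abundant P450 transcript in every library. It was at 109, 113 and 109.8 TPM in control and 229, 231 and 223 TPM in resistant libraries. Replicates were tight and the groups lay far apart, with 2.05 times the control mean in resistant cells (log2 1.03 ± 0.04, adjusted p = 2.71e-06 in limma).

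CYP4F3 (ENSG00000186529, chr19:15640897-15662825, plus strand), which inactivates leukotriene B4, had the largest change of the tested members on the log2(TPM + 1) scale. It was at 15.5, 16.6 and 16.3 TPM in control and 43.6, 48.3 and 46.0 TPM in resistant libraries, 2.85 times as high (log2 1.45 ± 0.06, adjusted p = 3.61e-06 in limma). CYP4F12 (ENSG00000186204, chr19:15672757-15697174, plus strand), another fatty acid hydroxylase, was low: 1.87, 3.02 and 2.40 TPM in control and 5.78, 5.52 and 4.63 TPM in resistant libraries (log2 0.89 ± 0.15, adjusted p = 0.00201 in limma). Every resistant library was above every control library.

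CYP4V2, a fatty acid hydroxylase of chromosome 4 known from a crystalline disease of the retina, was at 1.77, 1.74 and 1.69 TPM in control and 2.87, 2.55 and 2.70 TPM in resistant libraries (log2 0.44 ± 0.11, adjusted p = 0.0135 in limma). The groups did not overlap, though the change was the smallest among the 5 increases. The remaining tested members of this class lie on chromosome 1 and had lower means in resistant cells without passing the test. CYP2J2, an epoxygenase of arachidonic acid, was at 8.06, 9.16 and 9.81 TPM in control and 8.18, 7.15 and 7.25 TPM in resistant libraries (log2 -0.23 ± 0.09, adjusted p = 0.0766 in limma). The groups overlapped through control replicate 1, and without that library the difference passed (log2 -0.30, adjusted p = 0.0346 in limma, n = 2 control libraries). It also passed with median-ratio scaling (adjusted p = 0.0378 in limma).

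CYP4B1, known as a lung P450, was at 3.47, 3.45 and 4.13 TPM in control and 2.89, 2.74 and 2.95 TPM in resistant libraries (log2 -0.28 ± 0.11, adjusted p = 0.0645 in limma). The groups did not overlap, and the difference passed when limma was run without trend and robust estimation (adjusted p = 0.0256). CYP2U1, a fatty acid hydroxylase that missed the filter, was at 0.722, 0.813 and 0.719 TPM in control and 1.40, 1.25 and 0.999 TPM in resistant libraries. The other untested CYP4F members were lower still. CYP4F2 was at 0.175, 0.0751 and 0.273 TPM in control and 0.677, 0.316 and 0.328 TPM in resistant libraries, on an estimated 2 to 20 reads. CYP4F8, a prostaglandin hydroxylase, was at 0.393, 0.759 and 0.381 TPM in control and 0.684, 0.551 and 0.221 TPM in resistant libraries, with groups that overlapped.

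CYP4F11 and CYP4F3 together made a larger part of the P450 transcript pool in resistant cells. Summed over the 56 members, TPM was 278 to 308 in control and 431 to 440.3 in resistant libraries. CYP4F11 held 36.7% to 39.4% of the sum in control and 51.8% to 52.4% in resistant libraries. Without CYP4F11 and CYP4F3 the sum was 153 to 178 TPM in control and 161 to 168 TPM in resistant libraries, so the groups overlapped. In bulk RNA, more transcript per cell and a larger number of expressing cells cannot be told apart.

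**Figure D2:**
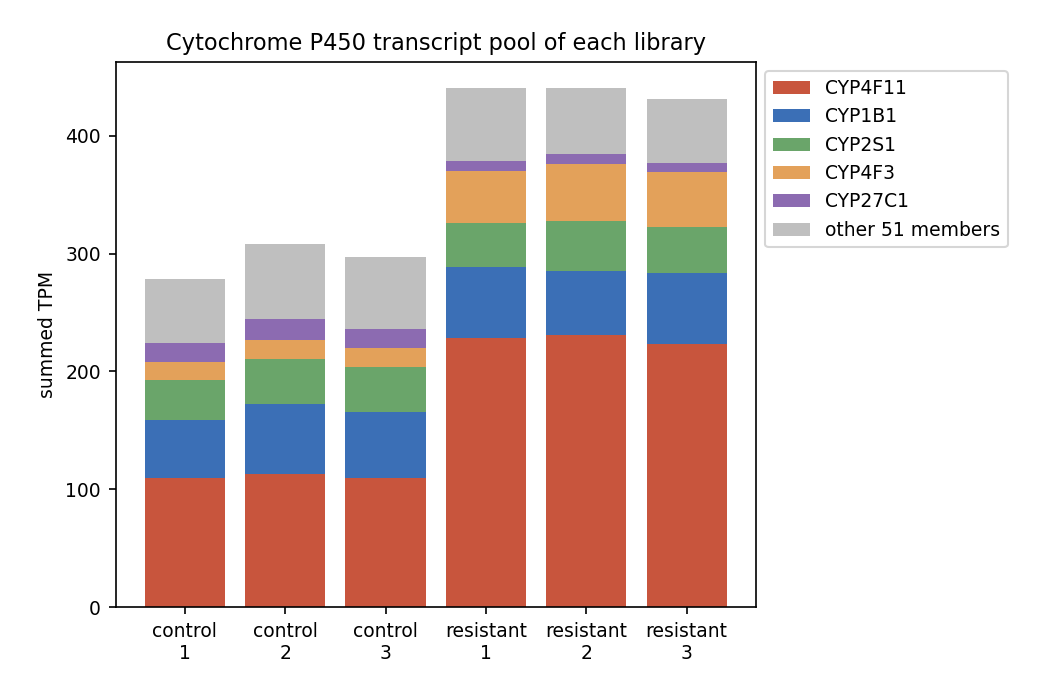
Summed TPM of the 56 P450 members in each library as stacked bars, with the 5 most abundant members in colour and the other 51 in grey. The bars reach 278 to 308 TPM in control and 431 to 440.3 TPM in resistant libraries. The red part, CYP4F11, and the orange part, CYP4F3, are the ones that are taller in every resistant library than in every control library.

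The CYP4F genes lie side by side on chromosome 19. The 6 members span 426 kb, chr19:15508493-15934867 on GRCh38, and the 3 that were tested all rose. Of 21 other tested genes within the span or 500 kb on either side, leaving out CYP pseudogenes, 5 rose and 2 fell, with a median log2 change of 0.08. SLC1A6, 1 of the 2 that fell, was at 8.41 to 8.50 TPM in control and 0.0288 to 0.0556 TPM in resistant libraries. It met the filter through its control libraries alone, so its call is no support for a decrease, here or in the wider windows that follow. Within 1000 kb of CYP4F3 the balance turned, with 5 of 35 other tested genes higher and 9 lower (median -0.07), and around CYP4F11 6 of 37 were higher and 9 lower (median -0.04). The median over 908 tested protein-coding genes of chromosome 19 was 0.06. Only 3 of those 21 genes lie inside the span, and they are named after their values were seen. UCA1, a long non-coding RNA known from bladder cancer, rose from 66.6 to 215 TPM on average (log2 1.67 ± 0.04, adjusted p = 8.28e-07 in limma), more on that scale than any tested P450 gene. It was at 64.9, 65.4 and 69.4 TPM in control and 212, 221 and 211 TPM in resistant libraries, so the groups did not overlap. AC005336.4, a processed pseudogene 543 bases downstream of CYP4F11 on the same strand, rose from 46.4 to 62.7 TPM on average (log2 0.43 ± 0.04, adjusted p = 1.66e-04 in limma). RPL23AP2, a ribosomal protein pseudogene, was at 0 to 1.26 TPM in control and 0.227 to 1.10 TPM in resistant libraries.

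**Figure D3:**
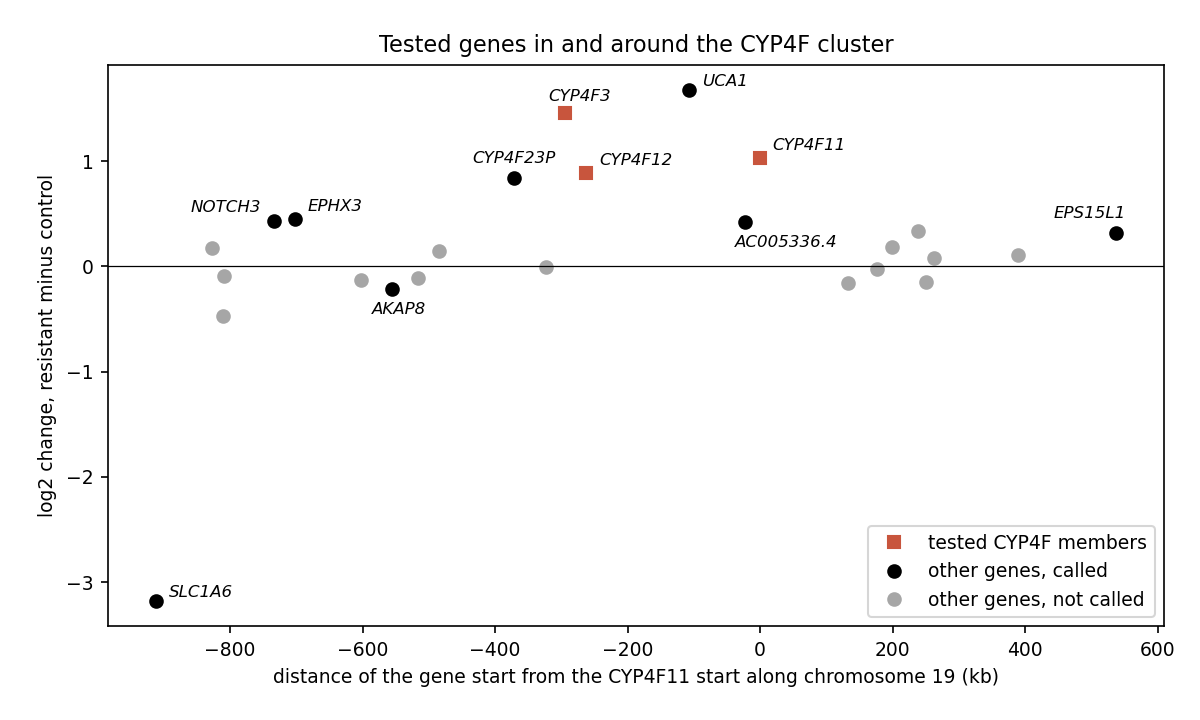
Log2 change of every tested gene in and around the CYP4F cluster against the distance of its start from that of CYP4F11 along chromosome 19, in kb. The 3 tested CYP4F members, drawn as red squares, lie at 0.89 to 1.45, with UCA1 at 1.67 among them, while most other genes, in grey where they were not called, lie near 0 and SLC1A6 at the left edge lies at -3.18. SLC1A6 was tested only through its control libraries, so its call is no support for a decrease.

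The upstream sequences of CYP4F11, which rose, and CYP4F8, which stayed under 1 TPM with overlapping groups, are shown because they hold the same motif at nearly the same place. They are the 250 bases before a RefSeq start on GRCh38.p14, on the gene's strand, at chr19:15934868-15935117 (minus) and chr19:15614968-15615217 (plus), and neither window overlaps an annotated exon. Capitals mark a match to TGACNNNGC, the core of the antioxidant response element, searched on both strands.
CYP4F11: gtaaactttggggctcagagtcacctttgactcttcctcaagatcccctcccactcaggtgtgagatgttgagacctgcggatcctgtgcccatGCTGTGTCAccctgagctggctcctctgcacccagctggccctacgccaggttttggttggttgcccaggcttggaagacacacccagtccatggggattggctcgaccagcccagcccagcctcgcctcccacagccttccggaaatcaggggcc
CYP4F8: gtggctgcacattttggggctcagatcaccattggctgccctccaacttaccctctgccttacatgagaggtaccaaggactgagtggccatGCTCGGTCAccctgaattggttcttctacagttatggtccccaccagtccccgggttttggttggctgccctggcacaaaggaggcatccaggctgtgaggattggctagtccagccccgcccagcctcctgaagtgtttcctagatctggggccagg
A second RefSeq start of CYP4F11 has its window at chr19:15934530-15934779, which overlaps an exon and holds no match. Each printed window holds 1 match, on the opposite strand, whose first base is at -156 and -158 from the start. The table of upstream sequences held 38 of the 56 members. Of those, 4 (CYP4F11, CYP4F8, CYP4V2 and CYP2B6) had the motif in a window, and over all 35116 windows of that length 10.9% had it. The windows of CYP4F3, which had the largest increase, CYP4F2 and CYP4F22 held no match, and CYP4F12 had no entry. The core of the xenobiotic response element, GCGTG, which is bound by the aryl hydrocarbon receptor, occurred in a window of 10 of the 38 members and in 32.2% of all windows. For both motifs a member counts once for any of its windows, and some members have several. The background counts single windows, so the shares are not in like units. A match describes letters and is not evidence of binding.

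The class of drug-oxidising enzymes, as assigned for this report, held 1 abundant gene, which did not pass the test. CYP2S1, an abundant CYP2 gene, was placed with the members of little known function. Of 18 members of this class, 2 were tested and neither was called, and 15 stayed under 1 TPM in all libraries. CYP1B1 (ENSG00000138061, chr2:38066973-38109902, minus strand), which oxidises oestrogens and polycyclic hydrocarbons, was at 49.7, 59.5 and 55.9 TPM in control and 60.3, 54.3 and 60.0 TPM in resistant libraries. The groups overlapped (log2 0.08 ± 0.08, 95% interval -0.09 to 0.26, adjusted p = 0.395 in limma). The interval leaves room for a small change in either direction. CYP2A6, a hepatic nicotine oxidase that missed the filter, was at 0.247, 1.06 and 0.342 TPM in control and 0.143, 0.0495 and 0.0927 TPM in resistant libraries.

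CYP2D6, a hepatic drug oxidase, was at 2.89, 3.01 and 3.70 TPM in control and 3.29, 3.31 and 1.94 TPM in resistant libraries (log2 -0.14 ± 0.18, adjusted p = 0.530 in limma). Resistant replicate 3 was lower than the other 5 libraries. Of its 50-base windows 34.4% occur in another gene, mostly CYP2D7, so its level is uncertain. CYP3A4 was at 0.061 to 0.141 TPM in control and 0.0353 to 0.0682 TPM in resistant libraries, on an estimated 1 to 4 reads, and CYP3A5 at 0.241 to 0.263 and 0.0818 to 0.300 TPM on 5 to 19 reads. A difference in either was not detectable at this depth.

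CYP1A1, the classical target of the aryl hydrocarbon receptor, was at 0.0320, 0 and 0.0277 TPM in control and 0.464, 0.0962 and 0.120 TPM in resistant libraries. Those values correspond to an estimated 0 or 1 read in control and 3 to 15 reads in resistant libraries, with resistant replicate 1 holding most of them. CYP1A2 was at 0 to 0.0403 TPM in control and 0 to 0.0808 TPM in resistant libraries.

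Of 3 vitamin D enzymes 1 was tested and rose, and of 4 retinoid enzymes 3 were tested and 1 fell. Among all tested genes 24.0% were called higher and 24.7% lower. CYP2R1 (ENSG00000186104, chr11:14877440-14892252, minus strand), which makes the circulating form of vitamin D, was at 2.17, 2.84 and 3.09 TPM in control and 5.57, 4.57 and 5.12 TPM in resistant libraries (log2 0.72 ± 0.13, adjusted p = 0.00271 in limma). Every resistant library was above every control library. CYP27B1, which activates vitamin D, was at 0.264 to 0.829 and 0.132 to 0.511 TPM, and CYP24A1, which degrades it, at 0 to 0.0594 and 0.0277 to 0.214 TPM.

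CYP27C1 (ENSG00000186684, chr2:127184120-127220078, minus strand), a retinoid desaturase, had the largest decrease among the tested members on the log2(TPM + 1) scale. It was at 16.4, 17.3 and 16.01 TPM in control and 9.14, 8.56 and 7.86 TPM in resistant libraries, 0.514 times the control mean (log2 -0.89 ± 0.07, adjusted p = 7.47e-05 in limma). Replicates were tight in both groups. The retinoic acid hydroxylases CYP26B1 and CYP26A1 did not pass the test. CYP26B1 was at 6.12, 5.95 and 5.72 TPM in control and 5.34, 6.28 and 5.99 TPM in resistant libraries (log2 -0.01 ± 0.09, 95% interval -0.21 to 0.19). CYP26A1 was at 1.68, 2.28 and 1.65 TPM in control and 1.07, 1.11 and 1.49 TPM in resistant libraries (log2 -0.37 ± 0.16, adjusted p = 0.0921 in limma). The groups of CYP26A1 did not overlap, 23.35% of its 50-base windows are shared with the overlapping non-coding gene AL358613.3, and the difference passed without trend and robust estimation (adjusted p = 0.0456 in limma).

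**Figure D4:**
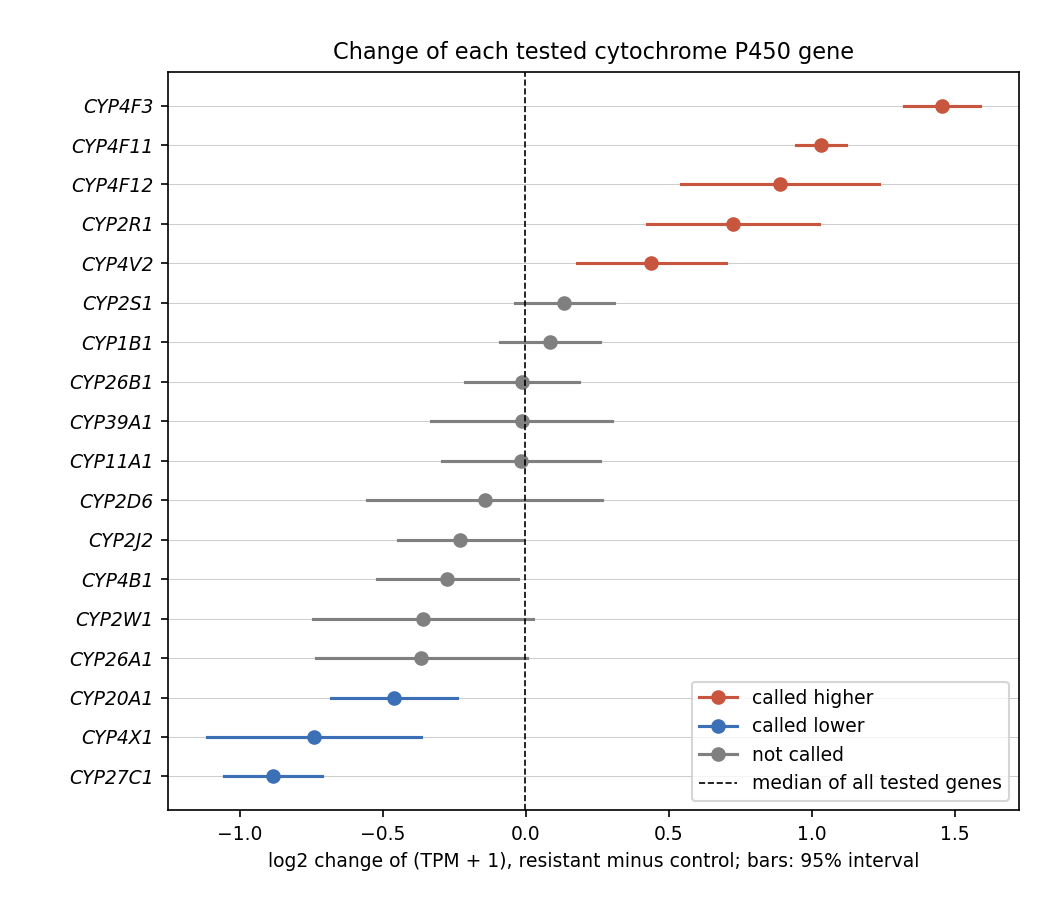
Log2 change of (TPM + 1), resistant minus control, of the 18 tested P450 genes with 95% intervals, in red where called higher, blue where called lower and grey where not called. CYP4F3 is highest at 1.45 and CYP27C1 lowest at -0.89, and the dashed line marks the median of all tested genes.

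Of 5 members of little known function 4 were tested and 2 were called lower, 1 of them only through its control libraries. Among all tested genes 24.7% were called lower. CYP20A1, an orphan P450 of chromosome 2, was at 6.22, 6.52 and 7.32 TPM in control and 4.89, 4.65 and 4.21 TPM in resistant libraries (log2 -0.46 ± 0.09, adjusted p = 0.00520 in limma). The groups did not overlap. CYP4X1, an orphan CYP4 gene of chromosome 1, was at 1.23, 1.36 and 1.36 TPM in control and 0.362, 0.487 and 0.316 TPM in resistant libraries (log2 -0.74 ± 0.16, adjusted p = 0.00671 in limma). It passed the filter through its control libraries alone, on an estimated 7.80 to 36.4 reads per library, so it was tested because it is high there, and its call is no support for a decrease. With any control library left out it was no longer tested. CYP2W1, an orphan gene known from colon tumours, was at 1.79, 2.04 and 1.68 TPM in control and 0.844, 1.31 and 1.53 TPM in resistant libraries (log2 -0.36 ± 0.16, adjusted p = 0.109 in limma). Its groups did not overlap. CYP2S1, an extrahepatic CYP2 enzyme, was among the most abundant members: 33.2, 37.7 and 37.9 TPM in control and 37.2, 43.0 and 39.4 TPM in resistant libraries (log2 0.13 ± 0.07, adjusted p = 0.177 in limma). The groups overlapped, and only limma-voom, run on reads rebuilt from TPM, called the difference (adjusted p = 0.0491).

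Some of the members with lower means lie in stretches that were lower as a whole. CYP4B1 and CYP4X1 are neighbours on chromosome 1, and of 23 other tested genes within 1000 kb of them 18 fell and 1 rose, with a median log2 change of -0.83. Around CYP2J2, farther along that chromosome, 2 of 4 such genes fell (median -0.40), and around CYP2W1 on chromosome 7 it was 15 of 25 (median -0.28). The median over 571 tested protein-coding genes of chromosome 7 was -0.33, so the surroundings of CYP2W1 were no lower than the chromosome as a whole. CYP27C1 and CYP20A1 had no such surroundings: the medians were -0.04 over 14 genes and -0.10 over 9 genes. Around CYP2R1 the median was 0.13 over 4 genes, and around CYP4V2 it was 0.32 over 9 genes. The part of the surroundings in each value was not tested.

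Steroid and bile acid enzymes had 1 tested member in each class, and neither passed the test. CYP11A1, which cleaves the cholesterol side chain in the first step of steroid synthesis, was at 8.10, 10.4 and 8.29 TPM in control and 9.90, 7.76 and 8.69 TPM in resistant libraries (log2 -0.02 ± 0.12, 95% interval -0.30 to 0.26). The other 5 steroid members were under 1 TPM in all libraries, and of 4 adrenal and gonadal markers all were under 1 TPM, with MC2R and LHCGR at 0. CYP39A1, an oxysterol hydroxylase, was at 2.79, 4.03 and 3.05 TPM in control and 3.52, 2.94 and 3.19 TPM in resistant libraries (log2 -0.01 ± 0.14, 95% interval -0.33 to 0.30).

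CYP8B1, a sterol hydroxylase of bile acid synthesis, missed the filter. It was at 1.02, 0.882 and 1.10 TPM in control and 0.337, 0.274 and 0.234 TPM in resistant libraries, and without a filter it was called lower (log2 -0.64, adjusted p = 0.0109 in limma). In that fit 5 members were called higher and 4 lower, and 23.6% of 30799 genes were called, 12.1% higher and 11.5% lower. The groups did not overlap. CYP27A1, which oxidises the sterol side chain, was at 0.575 to 0.791 TPM in control and 0.259 to 0.519 TPM in resistant libraries, on an estimated 7 to 20 reads.

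The 38 untested members were too low for a statement on most of them. Only CYP2U1, CYP8B1 and CYP2A6 reached 1 TPM in any library. Mean TPM of the pseudogene CYP51P2 was 0.688 for control cells and 0.737 for resistant cells.

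Electron donors and partners of P450 enzymes were measured from a list of 13 genes, of which 12 were tested, 2 rose and 5 fell, and 48.6% of all tested genes were called (24.0% higher, 24.7% lower). POR, the reductase that supplies all microsomal P450 enzymes, was at 133, 141 and 142 TPM in control and 94.4, 97.8 and 96.2 TPM in resistant libraries (log2 -0.52 ± 0.04, adjusted p = 7.53e-05 in limma). Every resistant library was below every control library, so the reductase fell while CYP4F11, the most abundant enzyme that it serves, rose. POR lies on chromosome 7, where the median over 571 tested protein-coding genes was -0.33. FDXR, the reductase of the mitochondrial chain, rose from 17.8 ± 0.872 to 29.99 ± 0.847 TPM (SD, n = 3 per group), and its ferredoxin FDX1 was at 29.2 ± 2.30 and 28.8 ± 0.484 TPM. CYB5A, cytochrome b5, was at 40.7 ± 2.55 and 37.5 ± 2.92 TPM and did not pass the test. PGRMC1 and PGRMC2, membrane haem proteins that bind P450 enzymes, fell from 271 ± 13.6 to 169 ± 1.77 TPM and from 48.7 ± 3.06 to 33.6 ± 0.962 TPM. PGRMC1 lies on the X chromosome, whose median was -0.32. CYB5RL, a relative of the b5 reductases, fell from 8.37 ± 0.504 to 4.85 ± 0.117 TPM.

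Of 28 receptors and cofactors that control P450 genes, 19 were tested, 5 rose and 7 fell, against a background of 24.0% higher and 24.7% lower. AHR, the aryl hydrocarbon receptor, was at 19.8, 20.3 and 21.2 TPM in control and 15.9, 13.2 and 16.3 TPM in resistant libraries (log2 -0.41 ± 0.08, adjusted p = 0.00502 in limma). The groups did not overlap, and AHR too lies on chromosome 7 with its median of -0.33. Its partner ARNT was at 21.5 ± 1.02 and 20.0 ± 1.63 TPM and did not pass. NR1I2, the pregnane X receptor that controls CYP3A4 in liver, was listed at 0 in all 6 libraries. NR1H3, an oxysterol receptor, rose from 19.8 ± 0.454 to 38.8 ± 0.946 TPM. The retinoic acid receptors differed: RARA rose from 23.2 ± 0.709 to 38.2 ± 0.691 TPM and RARG fell from 71.2 ± 1.52 to 51.5 ± 1.53 TPM. ESRRA, an orphan nuclear receptor of energy metabolism, fell from 168 ± 5.44 to 133 ± 4.47 TPM.

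Haem synthesis, which supplies the cofactor, had 14 of 15 genes tested, with 4 higher, 2 lower and a median log2 change of -0.01, where 48.6% of all tested genes were called. CPOX, an enzyme late in the pathway, was at 32.95 ± 1.14 TPM in control cells and higher, at 53.1 ± 2.07 TPM, in resistant cells. UROD, the enzyme before it, was likewise higher, 63.4 ± 4.31 against 45.9 ± 2.98 TPM. The mitochondrial carrier SLC25A39 rose from 166 ± 6.52 to 246 ± 7.88 TPM. SLC25A38, which carries glycine for haem synthesis, fell from 33.3 ± 2.91 to 27.9 ± 1.55 TPM (adjusted p = 0.0295 in limma), a call lost without control replicate 1 (adjusted p = 0.0768 in limma), control replicate 3 (0.100) or resistant replicate 2 (0.0893).

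Enzymes that take over P450 products were tested for 14 of 40 genes of conjugation and epoxide hydrolysis, with 4 higher and 4 lower, beside 24.0% and 24.7% of all tested genes. EPHX2, the soluble epoxide hydrolase that opens fatty acid epoxides, fell from 5.46 ± 0.359 to 2.26 ± 0.264 TPM, and EPHX3, which lies within 500 kb of the CYP4F cluster, rose from 33.2 ± 1.96 to 45.7 ± 0.845 TPM. UGT1A1 and UGT1A6, glucuronosyltransferases whose transcripts share exons and are thus uncertain, fell from 19.7 ± 0.365 to 11.5 ± 0.862 TPM and from 16.9 ± 0.994 to 10.0 ± 0.978 TPM. NAT1, an acetyltransferase, fell from 14.3 ± 2.26 to 8.81 ± 0.470 TPM.

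Among 38 other genes of eicosanoid, steroid and retinoid metabolism, 37 were matched and 23 tested, and 4 rose and 13 fell (median log2 change -0.24). The shares over all tested genes were 24.0% higher and 24.7% lower, with a median of -0.00. ALOX15, a lipoxygenase, rose from 25.9 ± 0.308 to 38.6 ± 1.71 TPM, and HPGD, which inactivates prostaglandins, fell from 12.4 ± 1.74 to 4.84 ± 0.223 TPM. STRA6, a retinol uptake receptor, fell from 34.3 ± 1.75 to 6.58 ± 0.337 TPM (log2 -2.22 ± 0.07, adjusted p = 1.19e-06 in limma), while CRABP2, a carrier of retinoic acid, rose from 505 ± 28.7 to 837 ± 36.2 TPM. HSD3B1, which converts steroid precursors after CYP11A1, fell from 18.9 ± 1.51 to 1.36 ± 0.415 TPM (log2 -3.09 ± 0.14, adjusted p = 6.51e-06 in limma).

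**Figure D5:**
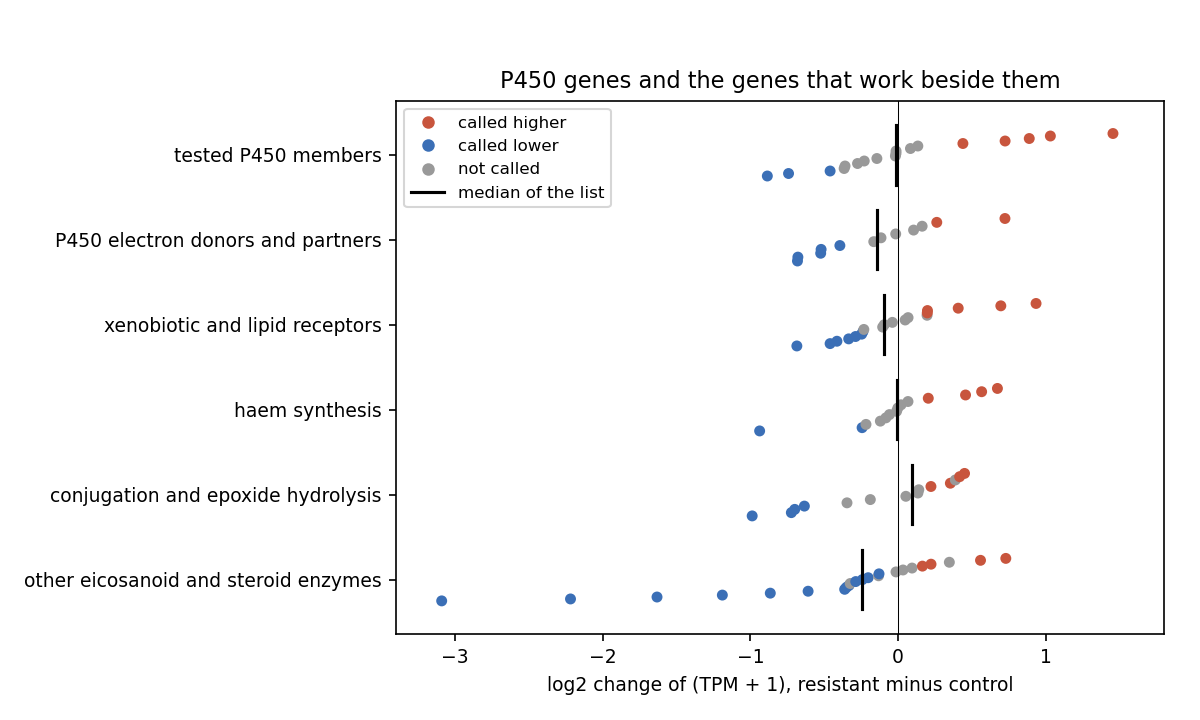
Log2 change of (TPM + 1), resistant minus control, of each tested gene, by list, in red where called higher, blue where called lower and grey where not called, with a black bar at the list's median. The medians run from -0.24 for the other eicosanoid and steroid enzymes to 0.09 for conjugation and epoxide hydrolysis, and each list has calls in both directions.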

How the data were processed

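The authors deposited 1 table of TPM with a column per library, and each column sums to 1000000. The aligner HISAT2 comes per the submitters' processing notes, without a version. How reads were counted, whether by strand, and on which annotation and build is not stated in the sources used here. All 51537 identifiers occur in GENCODE 29 (GRCh38), which gave coordinates and exon lengths. TPM was multiplied by exon length and divided by what 1 read is worth, taken from the commonest low value of each library. The result was whole within 0.01 read for 77.6% to 78.4% of values up to 100 reads, so read numbers are estimates.

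The package limma 3.58.1 (R 4.3.3, statmod 1.5.0) was fitted to log2(TPM + 1) of the 16077 genes that reached 1 TPM in 3 or more libraries, with trend and robust estimation, two-sided, with Benjamini-Hochberg adjustment over all of them. Replicate numbers were not used as a block. In 1 simulated table for this comparison 15257 genes were tested. The fit recovered 80.9% of genes changed by 1 and 48.9% of those changed by 0.5 on the log2 scale, with 0 in the wrong direction. Of its calls, 5.47% fell on genes that had not been changed. The simulation assumed the same spread setting for every gene and changed only 94 and 92 of the tested genes. In the data 48.6% of genes were called, so these rates describe the simulated setting and not the data.

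Members and lists were chosen with earlier results of these data known. Each tested member is given by library, with CYP1A1, CYP1A2, CYP3A4 and CYP3A5 in any case and CYP2U1 and CYP8B1 by their mean of 1 TPM; CYP2A6, CYP4F2, CYP4F8, CYP27A1, CYP27B1 and CYP24A1 were added after their values were seen. Of each list, up to 5 called genes with at least 5 TPM and the largest changes are named, with POR, CYB5A, FDX1, FDXR, AHR, ARNT and NR1I2 in any case. Some genes that the naming rule takes are not reported here. Upstream sequences are from RefSeq (GRCh38.p14).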

Additional observations from a re-analysis of the deposited data

How the results depend on the processing

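Alternatives were a pseudocount of 0.1, no filter, a filter at 5 TPM, median-ratio scaling, limma without trend and robust estimation, the replicate block, leaving out each library and, chosen after seeing the data, limma-voom on rebuilt reads. The number of P450 members called higher was 5, but 6 with limma-voom and 2 with the filter at 5 TPM, where CYP4F12, CYP2R1 and CYP4V2 were no longer tested. The number called lower was 3, but 4 without a filter and 4 with median-ratio scaling. It was 2 with the filter at 5 TPM and 5 without trend and robust estimation. At 5 TPM, CYP20A1 was tested only through its control libraries, so that call supports no decrease. With 1 library left out, 5 were called higher each time and 2 to 3 lower. CYP4X1 missed the filter without any 1 of the control libraries, and without control replicate 1 CYP2J2 was called in its place. With the replicate block the counts were 5 higher and 3 lower. Same-numbered libraries did not deviate together (r = -0.0583, -0.00170 and -0.0163). With 3 libraries per group these values cannot show whether the numbers pair the samples. Of 54 single genes, 46 kept their side of the threshold in every alternative that tested them, 14 of the 18 tested members among them. The other members were CYP2S1, CYP2J2, CYP4B1 and CYP26A1, each gaining a call in some setting. SLC25A38 lost its call in 6 alternatives (adjusted p = 0.0552 to 0.100 in limma), and CYP4F23P in 2; the cause was not tested. CYP2D7P1 gained a call in 4 alternatives and CYP1B1-AS1 in 2. No called value changed sign. Depth limits the 38 untested members, none of which exceeded an estimated 80.0 reads in a library.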

Other observations

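A further 34 rows carry a CYP name but are annotated as pseudogenes or non-coding RNAs, and 24 of them stayed under 1 TPM in all libraries. Of the 8 tested, 2 were called higher and 2 lower, beside 24.0% and 24.7% of all tested genes. CYP4F23P (chr19:15564074-15584709), a transcribed pseudogene inside the CYP4F cluster, rose from 0.721 ± 0.343 to 2.08 ± 0.585 TPM (SD, n = 3 per group; log2 0.84 ± 0.22, adjusted p = 0.0154 in limma). That call was lost without resistant replicate 1 (adjusted p = 0.0505 in limma) or resistant replicate 3 (adjusted p = 0.0602 in limma). CYP4F23P reached 1 TPM in all resistant libraries but in control only in replicate 2, at 1.05 TPM. It thus met the filter through the group where it is high, so the call is no support for an increase. CYP4F29P on chromosome 21 was listed at 0 in the 3 control libraries and was at 1.43, 0.577 and 1.08 TPM in the resistant libraries, and it was not tested. CYP2T2P on chromosome 19 rose from 10.9 ± 0.709 to 13.8 ± 0.452 TPM (adjusted p = 0.00729 in limma).

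The pseudogenes called lower were CYP4Z2P, which lies between CYP4B1 and CYP4X1 on chromosome 1, from 1.96 ± 0.265 to 0.354 ± 0.0682 TPM (adjusted p = 8.99e-04 in limma), and CYP2F1P on chromosome 19, from 2.18 ± 0.789 to 0.577 ± 0.333 TPM (adjusted p = 0.0110 in limma). Both reached 1 TPM in control libraries only, so they were tested because they are high there, and these calls support no decrease. CYP2D7P1, the neighbour that shares sequence with CYP2D6, was at 3.38 ± 0.976 and 2.08 ± 0.258 TPM and did not pass (adjusted p = 0.0505 in limma; 0.0214 without control replicate 1). CYP1B1-AS1, antisense to CYP1B1, was at 2.47 ± 0.303 and 3.15 ± 0.127 TPM (adjusted p = 0.0903 in limma), and whether the authors counted by strand is not stated, so reads of the pair cannot be told apart. These rows were chosen after their values were seen.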
